A study of Mus musculus with 16 samples.

Results

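The let-7 miRNAs and miR-98 are 1 family of small RNAs, and the members described here are the 5p strands of let-7a, b, c, d, e, f, g and i, the 5p strand of miR-98, and let-7j. They were picked by family name, and all 10 were among the 1978 miRNA names counted and among the 483 with enough counts to be tested. RNA came from primary cultures of perinatal mouse forebrain neurons that had been transduced with lentivirus. There were 4 libraries in each of 4 groups: an empty vector (Empty_Vector), an shRNA (a short hairpin RNA, made to be processed into a small interfering RNA), shRNA_2bp, which had 2 point mutations in the hairpin, and shRNA_5bp, which had 5. Every group, the empty vector included, had received a lentiviral vector. The sequence and target of the hairpin, its promoter, the mouse strain and the time after transduction are not given in the sources used here, nor is it said whether the 4 libraries of a group came from separate cultures. P-values therefore measure the spread between these libraries, which may be technical.

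A mature miRNA guides Argonaute to messenger RNAs, chiefly through its seed, bases 2 to 8 from the 5′ end. Each is cut from a hairpin precursor by Drosha in the nucleus and Dicer in the cytoplasm, and shRNAs expressed from vectors use parts of the same export, Dicer and Argonaute machinery. Let-7 is low in stem cells, where LIN28 blocks its processing, and it rises as neurons differentiate. It represses growth and progenitor genes such as Hmga2, Trim71 and Lin28 itself, and it is among the most abundant miRNAs of mature neurons.

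The mature sequences of RefSeq on GRCm38.p6, printed 5′ to 3′ with the seed in capitals, show how little separates the members:
mmu-let-7a-5p: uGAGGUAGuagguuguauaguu
mmu-let-7b-5p: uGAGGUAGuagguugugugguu
mmu-let-7c-5p: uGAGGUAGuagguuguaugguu
mmu-let-7d-5p: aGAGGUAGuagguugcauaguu
mmu-let-7e-5p: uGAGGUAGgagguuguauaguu
mmu-let-7f-5p: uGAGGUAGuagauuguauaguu
mmu-let-7g-5p: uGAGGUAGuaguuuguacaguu
mmu-let-7i-5p: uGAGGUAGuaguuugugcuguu
mmu-miR-98-5p: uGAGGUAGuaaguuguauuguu
mmu-let-7j: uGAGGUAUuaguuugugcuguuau

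The seed GAGGUAG was shared by 9 members, and let-7j alone had GAGGUAU. Counted from 1 at the 5′ end, with the base of let-7a-5p first, let-7c-5p differed from let-7a-5p by A19G, let-7e-5p by U9G and let-7f-5p by G12A. Let-7b-5p differed from let-7a-5p by A17G and A19G, let-7d-5p by U1A and U16C, let-7g-5p by G12U and U18C, and miR-98-5p by G11A and A19U. Let-7i-5p carried 4 substitutions, G12U, A17G, U18C and A19U. Over the 22 bases they share, let-7j differed from let-7i-5p at 1 position, G8U with the base of let-7i-5p first, and let-7j is 24 bases long. How the authors assigned reads that match more than one name, or match with a mismatch, is not given in the sources used here. Counts of pairs that differ at 1 base, let-7i-5p and let-7j included, may therefore not be fully separate.

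The 10 mature sequences were found in 13 hairpins of that table, since those of let-7a, let-7c and let-7f each occur in 2. Mirlet7a-1, Mirlet7f-1 and Mirlet7d lie together on the minus strand, at chr13:48538179-48538272, chr13:48537829-48537917 and chr13:48536012-48536114, in exons of the long non-coding RNA gene 6720427I07Rik. Mirlet7c-2 (chr15:85706603-85706697) and Mirlet7b (chr15:85707319-85707403) are 621 bases apart on the plus strand, in exons of the non-coding gene Lncppara. Mirlet7f-2 (chrX:151912346-151912428) and Mir98 (chrX:151913214-151913321) are 785 bases apart in introns of Huwe1, a ubiquitin ligase gene. Mirlet7g (chr9:106178840-106178927) is in an intron of Wdr82, and Mirlet7e (chr17:17830352-17830444) in an intron of Spaca6. Mirlet7c-1 (chr16:77599657-77599750) is in an intron of the non-coding gene Mir99ahg. Mirlet7i (chr10:122985640-122985724) overlaps an exon of the transcribed pseudogene D630033A02Rik. The hairpin of let-7j, Mir7j (chr3:140028249-140028370), lies in no annotated gene. The second hairpin with the let-7a sequence, Mirlet7a-2, is at chr9:41536716-41536811. Coordinates are those of GRCm38, and hosts are from GENCODE M21.

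Library totals were 2.76 to 11.1 M counts with the empty vector, 5.3 to 8.06 M with shRNA, 1.18 to 2.1 M with shRNA_2bp and 0.832 to 2.5 M with shRNA_5bp, so depth differed along with the group. Counting error was small for the members at every depth, because the lowest of their 160 counts was 905. The neuronal miR-124-3p, miR-9-5p, miR-128-3p, miR-138-5p, miR-137-3p and miR-153-3p were present in all 16 libraries, together at 448100 to 463400 counts per 1 M with the empty vector and 334200 to 366700 with shRNA_5bp. MiR-128-3p made up most of that sum and was lower with shRNA_5bp (240000 to 281000 against 381000 to 397000), whereas miR-9-5p (83400 to 92000 against 63900 to 65700), miR-124-3p, miR-138-5p and miR-137-3p were higher without overlap. Of the 5 microglia and leukocyte markers, miR-223-3p and miR-142a-3p were at 0 in all 16 libraries and miR-142a-5p in some. MiR-155-5p and miR-146a-5p were above 0 in all of them, miR-146a-5p at 42.7 to 53.9 counts per 1 M with the empty vector. Of the 3 erythroid ones, miR-144-3p was at 0 in all 16 libraries and miR-451a in some, while miR-486a-5p was at 177 to 193 with the empty vector. In such bulk cultures fewer cells of a type and less of a miRNA per cell cannot be told apart.

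With the empty vector the 10 members together held 18.68, 17.01, 18.47 and 16.86% of all counts in libraries 1 to 4 (mean 17.76 ± 0.953%, SD). The share was 19.62 ± 0.841% with shRNA (18.85 to 20.58%), 20.93 ± 0.578% with shRNA_2bp (20.29 to 21.69%) and 19.05 ± 0.236% with shRNA_5bp (18.85 to 19.34%). Every hairpin library thus lay above every empty-vector library. A share depends on what else fills the library, and most of all on miR-128-3p, the most abundant miRNA. With miR-128-3p left out of the total, the family's share was 28.97 ± 1.26% with the empty vector (27.58 to 30.16%), 29.33 ± 1.41% with shRNA, 27.81 ± 0.864% with shRNA_2bp and 25.77 ± 0.71% with shRNA_5bp (24.79 to 26.33%). The order was then different, and only shRNA_5bp stood clear of the empty vector, below it. On the scale used below, counts per 1 M after scaling by the trimmed mean of M values (TMM; CPM), the summed family stood at 195800 ± 11200, 196300 ± 13700, 203700 ± 8100 and 177900 ± 7140 CPM in the same order of groups. The library numbered 4 had the lowest summed CPM of its group in all 4 groups.

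Within the family, let-7c-5p, let-7i-5p and let-7f-5p led with the empty vector, and let-7j closed the order. The levels were 49890 ± 4180 CPM for let-7c-5p, 42790 ± 1630 for let-7i-5p, 37440 ± 2660 for let-7f-5p, 22350 ± 2240 for let-7a-5p and 17000 ± 308 for let-7g-5p (mean ± SD, n = 4). Let-7b-5p followed with 13160 ± 499 CPM, let-7d-5p with 7762 ± 496, let-7e-5p with 3194 ± 247, miR-98-5p with 1574 ± 137 and let-7j with 679.6 ± 40.6 CPM. No 2 neighbours in that order overlapped, and all 4 libraries gave the same order. Ligation and amplification favour some small RNAs over others, so the order is one of read counts. With shRNA_2bp let-7f-5p passed let-7i-5p, and let-7a-5p and let-7g-5p overlapped (22030 to 24560 against 21580 to 23840 CPM), as did miR-98-5p and let-7j. With shRNA_5bp let-7g-5p stood above let-7a-5p, and let-7j above miR-98-5p in all 4 libraries.

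**Figure D1:**
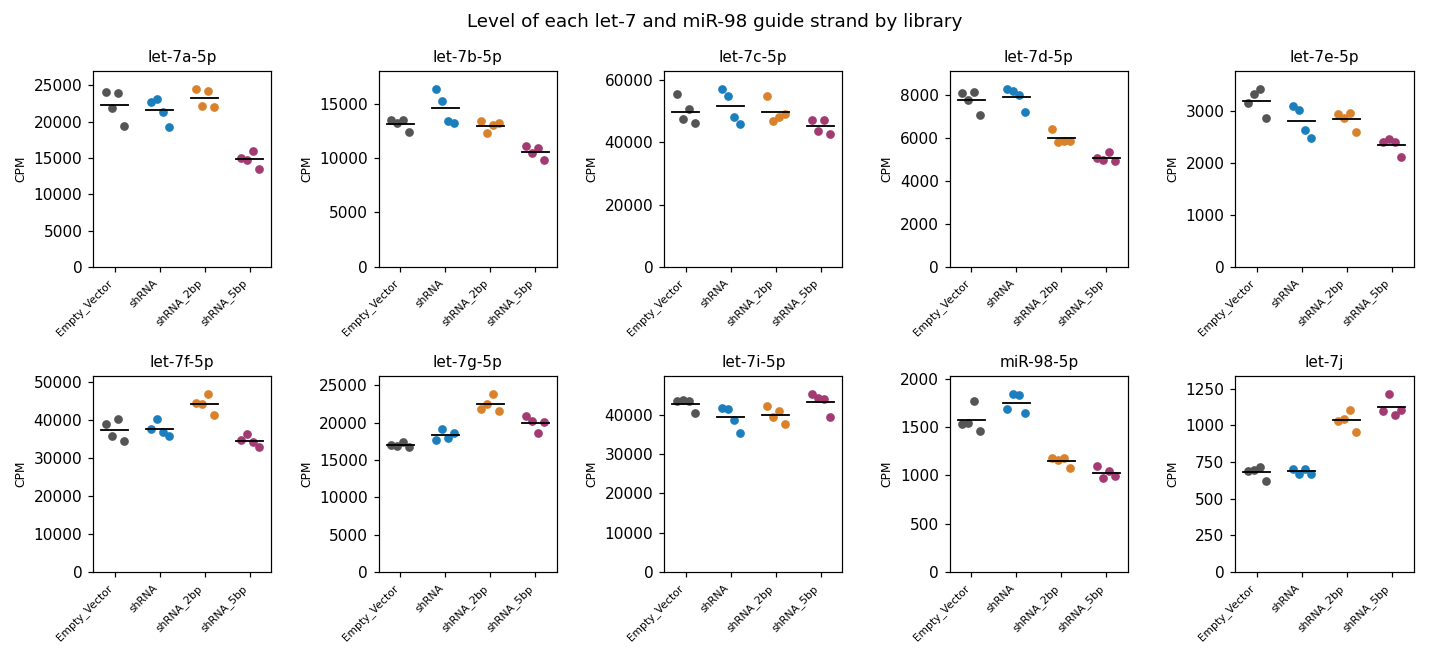
Level of each member (CPM after TMM scaling, linear axes from 0) in each of 16 libraries, as points, with group means as bars. MiR-98-5p and let-7d-5p are lower and let-7j and let-7g-5p higher with both mutated hairpins than with the empty vector, without overlap, and let-7a-5p is lower with shRNA_5bp only.

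Differences between groups were tested with edgeR's quasi-likelihood F test on all 483 miRNAs, with p-values adjusted over all of them (Benjamini and Hochberg). Differences are log2 fold changes ± standard error, and a member is said to rise or fall where the adjusted p was below 0.05. The 3 comparisons with the empty vector share its 4 libraries.

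The unmutated shRNA left the family close to the empty vector. Of 10 members 0 rose and 1 fell, against 34.8% of all 483 tested miRNAs changed in either direction (19.7% higher and 15.1% lower). At an unadjusted p below 0.05 there were 5 of 10, against 205 of all 483 tested miRNAs. The median log2 difference of the members was 0.02, and it was 0.04 over all tested miRNAs. The members ranged from -0.19 (let-7e-5p) to 0.15 (let-7b-5p and miR-98-5p). Let-7e-5p was at 3145, 3333, 3429 and 2868 CPM with the empty vector and 3098, 3024, 2624 and 2482 with shRNA. The groups overlapped, and its fall (-0.19 ± 0.07, edgeR adjusted p = 0.0403) was marginal. It was lost with library-size scaling (-0.05, adjusted p = 0.587), with only these groups in the fit (adjusted p = 0.0558), and without any single library among the empty-vector libraries 1 to 3, the 4 shRNA libraries, shRNA_2bp library 2 and shRNA_5bp libraries 1 and 4 (-0.19 to -0.08). Same-numbered libraries of shRNA and the empty vector deviated together (r = 0.111 to 0.281 over 360 miRNAs), and in the fit with the replicate number as a block 3 members rose (let-7b-5p 0.14, adjusted p = 0.0152; let-7g-5p 0.11, adjusted p = 0.0474; miR-98-5p 0.16, adjusted p = 0.0133) and 2 fell (let-7e-5p and let-7i-5p, the latter -0.12, adjusted p = 0.0102). Let-7g-5p was the 1 member whose libraries did not overlap, at 16690 to 17420 CPM with the empty vector and 17700 to 19120 with shRNA, against 32.9% of all tested miRNAs without overlap. All of these differences were under 0.2 on the log2 scale. The share of all tested miRNAs called in the fit with the block is not given here. With library-size scaling 7 members rose and 0 fell, and with median-of-ratios scaling or the Wald test of DESeq2 0 rose and 2 fell. The split of all tested miRNAs with library-size scaling is given at the end, and those of the other fits are not given here. Without shRNA_2bp library 2 or shRNA_5bp library 1 the count was also 1, but by another member: miR-98-5p rose (0.16 in each fit, adjusted p = 0.0478 and 0.0408) and let-7e-5p did not pass. It was 0 without empty-vector library 1. It was 3 when 1 of these was left out: empty-vector libraries 2 and 3, shRNA libraries 1 to 3 and shRNA_5bp library 4. It was 2 without any one of the other 7 libraries.

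With 2 mutations in the hairpin, members differed from the empty vector in both directions. Let-7j, let-7g-5p and let-7f-5p rose, miR-98-5p, let-7d-5p and let-7e-5p fell, and 4 members did not pass. Those 6 of 10 stand against 65.6% of all tested miRNAs (33.3% higher and 32.3% lower), and the median of the members (-0.01) was near that of all tested miRNAs (0.01). On CPM 5 of 10 did not overlap with the empty vector, against 59.2% of all tested miRNAs.

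Let-7j, the member with the divergent seed, was at 687.1, 695.3, 714.7 and 621.2 CPM with the empty vector and at 1033, 1042, 1108 and 955.7 with shRNA_2bp. Every shRNA_2bp library stood above every empty-vector library (0.61 ± 0.061, adjusted p = 7.92e-10). Let-7g-5p, the Wdr82-hosted member, went from 16980, 16920, 17420 and 16690 to 21800, 22490, 23840 and 21580 CPM. These groups did not overlap either (0.40 ± 0.05, adjusted p = 6.03e-08). Let-7f-5p, one of the 3 most abundant members, went from 38980, 35870, 40320 and 34580 to 44610, 44370, 46960 and 41310 CPM (0.24 ± 0.057, adjusted p = 0.000499). The gap between its groups was narrow, but they stayed apart.

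MiR-98-5p, encoded beside 1 of the let-7f hairpins, moved the other way. It was at 1529, 1542, 1770 and 1454 CPM with the empty vector and 1179, 1159, 1177 and 1071 with shRNA_2bp (-0.46 ± 0.063, adjusted p = 3.35e-07). Let-7d-5p, from the chromosome 13 cluster, went from 8084, 7775, 8130 and 7056 to 6408, 5811, 5838 and 5836 CPM (-0.38 ± 0.057, adjusted p = 1.4e-06). Both were lower in all 4 shRNA_2bp libraries than in any empty-vector library. Let-7e-5p overlapped (2589 to 2957 against 2868 to 3429 CPM; -0.17 ± 0.071, adjusted p = 0.0374). Its call was lost with library-size scaling (0.01, adjusted p = 0.88), with median-of-ratios scaling (-0.16, adjusted p = 0.0551), with DESeq2 (adjusted p = 0.0785), and without any single one of empty-vector libraries 1 to 3, shRNA libraries 1 to 3, shRNA_2bp library 2 and shRNA_5bp libraries 1, 3 and 4 (-0.16 to -0.09). The members that did not pass were let-7a-5p (0.06, interval -0.09 to 0.21), let-7b-5p (-0.02, -0.15 to 0.12), let-7c-5p (-0.01, -0.16 to 0.15) and let-7i-5p (-0.10, -0.22 to 0.03), where intervals are those of 95% confidence. Let-7i-5p passed as lower without empty-vector library 4 (-0.18), shRNA_2bp library 3 (-0.17) or shRNA_5bp library 2 (-0.16). It also did so with the replicate block (-0.10, adjusted p = 0.0271) and without the filter on low counts (-0.20, adjusted p = 0.00179), and it stood at 0.08 with library-size scaling. Against shRNA in place of the empty vector, let-7j (0.59), let-7g-5p (0.29) and let-7f-5p (0.23) rose with shRNA_2bp, and miR-98-5p (-0.61 ± 0.063, adjusted p = 1.52e-09), let-7d-5p (-0.41) and let-7b-5p (-0.16, adjusted p = 0.0205) fell, 6 of 10 against 64.6% of all tested miRNAs (31.1% higher and 33.5% lower). On CPM 5 of 10 did not overlap, against 58.4%. Let-7b-5p lost its call with median-of-ratios scaling (-0.12, adjusted p = 0.104) and without shRNA library 1 (-0.12) or shRNA_2bp library 2 (-0.13). Same-numbered libraries of these groups deviated together (r = 0.166 to 0.198), and let-7a-5p also rose with the replicate block (0.11, adjusted p = 0.0327; 0.11, adjusted p = 0.18, without it).

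With 5 mutations more members fell than rose. Let-7a-5p, let-7b-5p, let-7d-5p, let-7e-5p and miR-98-5p fell, let-7g-5p and let-7j rose, and 3 members did not pass. Those 7 of 10 stand against 58.2% of all tested miRNAs (31.5% higher and 26.7% lower). The members' median was -0.23, and that of all tested miRNAs 0.06. On CPM 7 of 10 did not overlap with the empty vector, against 50.3% of all tested miRNAs.

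Let-7a-5p was at 24130, 21900, 24020 and 19360 CPM with the empty vector and 14990, 14790, 15910 and 13530 with shRNA_5bp (-0.59 ± 0.069, adjusted p = 1.92e-08). With shRNA_2bp it had been at 24560, 22220, 24160 and 22030 CPM, and the fall from shRNA_2bp to shRNA_5bp was -0.65 ± 0.069 (adjusted p = 3.88e-09). Its 4 shRNA_5bp libraries lay below the other 12. Let-7d-5p was at 5066, 4977, 5328 and 4927 CPM with shRNA_5bp (-0.61 ± 0.057, adjusted p = 3.03e-10) and miR-98-5p at 1092, 976.4, 1041 and 996.4 CPM (-0.62 ± 0.064, adjusted p = 2.07e-09). Both were again below every empty-vector library. Let-7e-5p fell to 2405, 2450, 2408 and 2119 CPM (-0.45 ± 0.071, adjusted p = 3.89e-06), and let-7b-5p went from 13490, 13240, 13480 and 12430 to 11120, 10510, 10940 and 9782 CPM (-0.31 ± 0.062, adjusted p = 7.43e-05). With library-size scaling let-7b-5p did not pass (-0.07, adjusted p = 0.222).

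Let-7j rose to 1098, 1215, 1068 and 1107 CPM (0.73 ± 0.061, adjusted p = 3.85e-11), 1.65-fold its level with the empty vector. Let-7g-5p rose to 20820, 20270, 18550 and 20010 CPM (0.23 ± 0.05, adjusted p = 0.000287). No library of either overlapped with the empty vector. The rise of let-7g-5p was lost without empty-vector library 2 (0.13, adjusted p = 0.0579) and without the filter on low counts (0.00). Let-7i-5p, which differs from let-7j at 1 base of the 22 they share, was at 43590, 43770, 43430 and 40350 CPM with the empty vector and 45310, 44160, 43930 and 39550 with shRNA_5bp (0.02, interval -0.11 to 0.14). Let-7c-5p (-0.15, -0.30 to 0.01, adjusted p = 0.076) and let-7f-5p (-0.11, -0.24 to 0.01, adjusted p = 0.0898) did not pass, but both passed as lower with median-of-ratios scaling (-0.20 and -0.17), and stood above 0 with library-size scaling (0.09, and 0.13 with an adjusted p of 0.0337, by which let-7f-5p passed as higher). Both also passed as lower without any single one of empty-vector libraries 2 to 4, shRNA libraries 1 to 3, shRNA_2bp libraries 3 and 4 and shRNA_5bp library 4, and let-7f-5p without shRNA_5bp library 2 (-0.27 to -0.16).

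Compared directly, shRNA_5bp differed from shRNA_2bp by 7 falls and 0 rises among the 10 members, against 59.6% of all tested miRNAs changed (22.8% lower and 36.9% higher). On CPM 6 of 10 did not overlap, against 53%. After let-7a-5p, the falls were those of let-7f-5p (-0.36), let-7b-5p (-0.30), let-7e-5p (-0.28), let-7d-5p (-0.24), let-7g-5p (-0.17) and miR-98-5p (-0.16). The fall of miR-98-5p was lost when shRNA_5bp library 2, empty-vector library 4 or any of the first 3 libraries of shRNA_2bp was left out (-0.16 to -0.12), and with library-size scaling (-0.10). That of let-7g-5p was lost when shRNA_2bp library 3 was left out (-0.12, adjusted p = 0.0538) and with library-size scaling (-0.11). Let-7j (0.12, interval -0.02 to 0.25) and let-7i-5p (0.11, -0.01 to 0.24) stood on the other side of 0 and did not pass. With library-size scaling both passed as higher (0.18 and 0.17), as did let-7j without shRNA_2bp library 3 (0.17) and let-7i-5p without empty-vector library 4 (0.13). Let-7c-5p (-0.14, adjusted p = 0.0889) did not pass either, but it did as lower with median-of-ratios scaling (-0.21). The same held when 1 of these was left out: empty-vector libraries 1 to 3, the 4 shRNA libraries and shRNA_5bp library 4 (-0.27 to -0.15). Against shRNA, shRNA_5bp gave 6 falls, the largest for miR-98-5p (-0.77 ± 0.064, adjusted p = 3.73e-11), and 3 rises, those of let-7j (0.71), let-7i-5p (0.14, adjusted p = 0.0493) and let-7g-5p (0.12, adjusted p = 0.0467), with 53% of all tested miRNAs changed (28.4% higher and 24.6% lower). On CPM 6 of 10 did not overlap, against 48.7%. The smallest of these falls, that of let-7c-5p (-0.19, adjusted p = 0.0229), was lost with library-size scaling (-0.09). Let-7f-5p (-0.12, adjusted p = 0.066) did not pass, but it did as lower in 15 of the 22 alternatives, as with median-of-ratios scaling (-0.15, adjusted p = 0.0266). The calls of let-7i-5p and let-7g-5p there held in few alternatives. Without 1 library let-7i-5p ranged from -0.02 to 0.14 and let-7g-5p from -0.05 to 0.15, and 15 and 13 of the 16 such fits lost or turned them. The exceptions were shRNA_2bp library 1 for let-7i-5p and shRNA_2bp libraries 1 and 2 and shRNA_5bp library 3 for let-7g-5p.

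**Figure D2:**
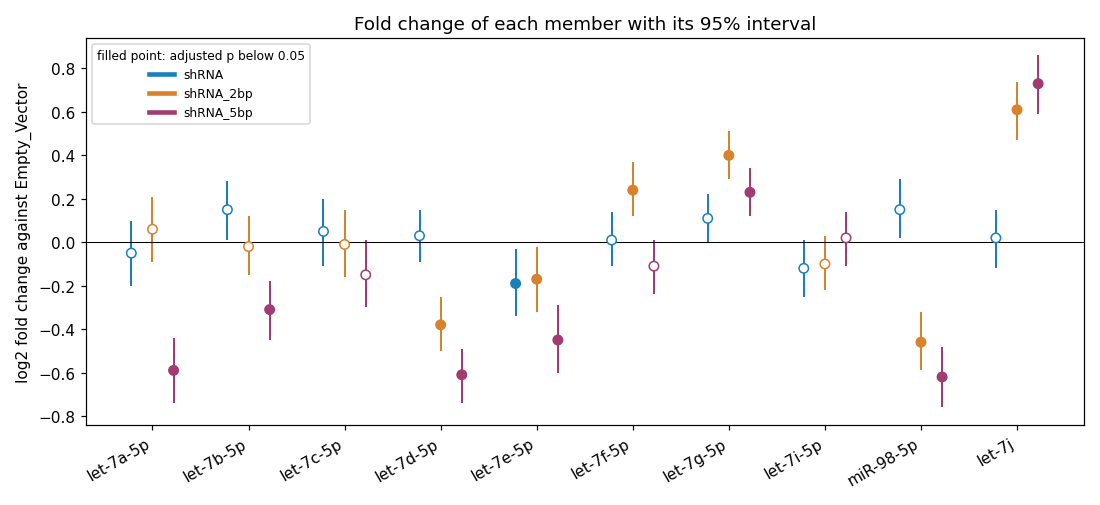
Log2 fold change of each member against the empty vector (y axis) with its 95% interval (bars) for the 3 hairpins. Filled points passed an adjusted p of 0.05; only let-7e-5p is filled for all 3 hairpins, while miR-98-5p and let-7d-5p lie below 0 and let-7g-5p and let-7j above 0 for both mutated ones.

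These values depend on the scaling of libraries. TMM factors were 0.884 to 0.929 with the empty vector and 1.04 to 1.12 with shRNA_5bp. With scaling to library totals, the all-miRNA median log2 difference was 0.18 in place of 0.04 for shRNA, 0.19 in place of 0.01 for shRNA_2bp and 0.30 in place of 0.06 for shRNA_5bp. The members moved up with it. With library-size scaling 7 rose and 0 fell with shRNA, 6 rose and 2 fell with shRNA_2bp, and 4 rose and 4 fell with shRNA_5bp. The splits of all tested miRNAs under that scaling also leaned to the higher side, and are given at the end. Without the filter on low counts the median of all tested miRNAs was -0.18 for shRNA_2bp and -0.28 for shRNA_5bp, and with shRNA_5bp 8 members fell and 1, let-7j, rose. The share of all miRNAs called without the filter is not given here, so these counts are not a result about the members. The falls of miR-98-5p and let-7d-5p and the rise of let-7j with both mutated hairpins, the rises of let-7g-5p and let-7f-5p with shRNA_2bp, and the falls of let-7a-5p and let-7e-5p with shRNA_5bp kept their sign and passed in all 22 alternatives run.

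**Figure D3:**
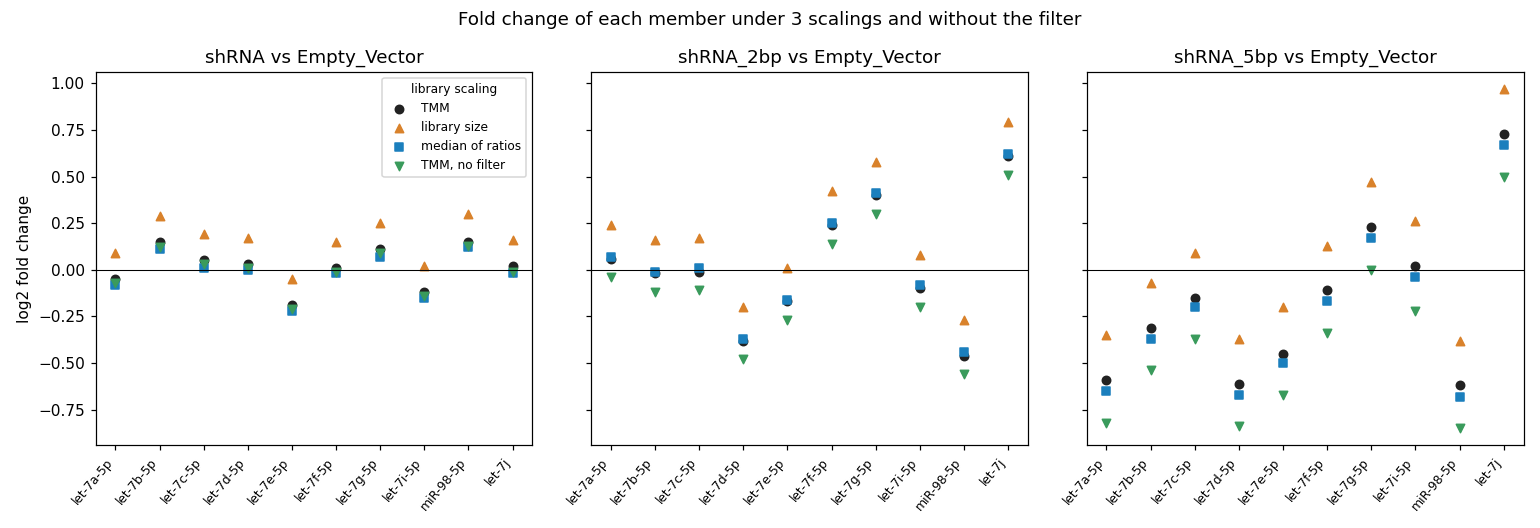
Log2 fold change of each member against the empty vector under TMM, library-size and median-of-ratios scaling, and under TMM without the filter on low counts. Library-size scaling puts every member higher than TMM, as for let-7j with shRNA_5bp (0.97 against 0.73), and leaving out the filter puts every member lower (0.50).

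The makeup of the family does not depend on that scaling. Each member's count was therefore also taken as a percentage of the summed counts of the 10 members, as a description. With shRNA 3 members did not overlap with the empty vector on this measure (let-7b-5p higher, let-7e-5p and let-7i-5p lower), against 29.6% of all tested miRNAs by their ratio to the summed members. The numbers were 7 of 10 against 57.3% with shRNA_2bp and 8 of 10 against 49.3% with shRNA_5bp. Between the hairpins they were 5 of 10 against 55.5% (shRNA_2bp and shRNA), 7 of 10 against 42.9% (shRNA_5bp and shRNA) and 5 of 10 against 52.8% (shRNA_5bp and shRNA_2bp).

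Let-7a-5p held 11.39 ± 0.517% of the family with the empty vector, 11 ± 0.231% with shRNA, 11.41 ± 0.204% with shRNA_2bp and 8.321 ± 0.334% with shRNA_5bp. Only the last group stood apart. Let-7i-5p held 21.87 ± 0.749%, 20.05 ± 0.337%, 19.65 ± 0.236% and 24.3 ± 0.487% in the same order. It was thus lower than with the empty vector for shRNA and shRNA_2bp and higher for shRNA_5bp, each without overlap. Let-7f-5p held 19.11 ± 0.505% with the empty vector, 21.76 ± 0.829% with shRNA_2bp and 19.47 ± 0.622% with shRNA_5bp, so that its larger share was seen with shRNA_2bp.

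Let-7g-5p held 8.698 ± 0.401% with the empty vector, 11.02 ± 0.549% with shRNA_2bp and 11.21 ± 0.692% with shRNA_5bp. Let-7d-5p went from 3.962 ± 0.0692% to 2.933 ± 0.0903% and 2.855 ± 0.104%, and miR-98-5p from 0.8038 ± 0.0524% to 0.563 ± 0.0158% and 0.5773 ± 0.0232%. For these 3 members both mutated hairpins overlapped with each other and not with the empty vector. Let-7j held 0.3471 ± 0.012% with the empty vector, 0.508 ± 0.0245% with shRNA_2bp and 0.6316 ± 0.0441% with shRNA_5bp, and no 2 of these groups overlapped. The share of let-7c-5p, the most abundant member, overlapped between all groups, with means of 24.39 to 26.2%.

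**Figure D4:**
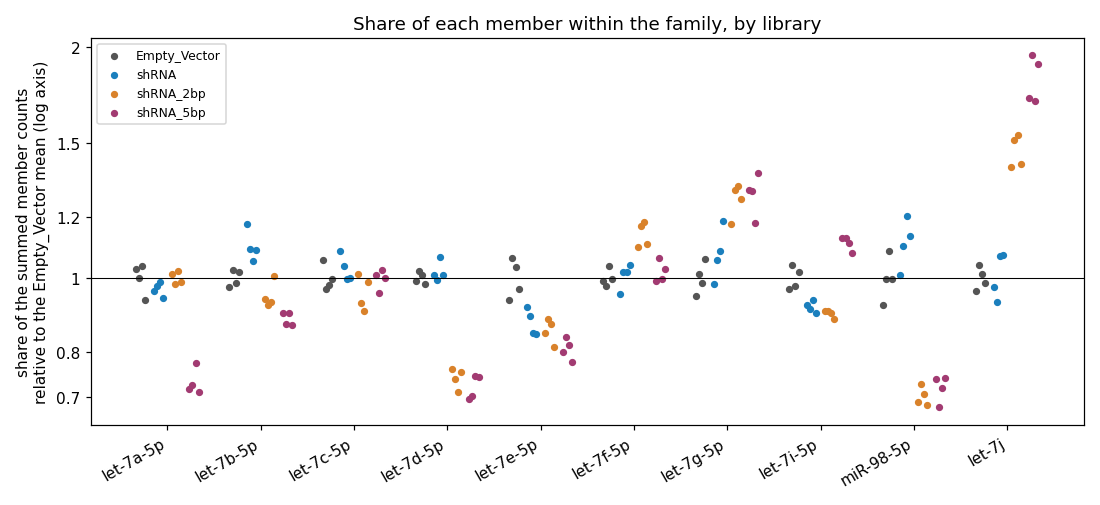
Share of each member in the summed counts of the 10 members, relative to its mean with the empty vector (log axis), with 1 point per library. Let-7j and let-7g-5p lie above 1 and let-7d-5p and miR-98-5p below 1 for both mutated hairpins, while let-7a-5p lies near 1 except with shRNA_5bp.

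Members of the chromosome 13 cluster differed in direction with shRNA_2bp, and the X chromosome pair differed in ratio with both mutated hairpins. The chromosome 15 pair stayed closer. On chromosome 13, with shRNA_2bp, let-7d-5p fell while let-7f-5p rose and let-7a-5p stood at 0.06, although let-7a and let-7f have a second hairpin elsewhere. On the X chromosome there were 3.92, 4.3, 4.39 and 4.2 miR-98-5p counts per 100 let-7f-5p counts with the empty vector. With shRNA_2bp there were 2.64, 2.61, 2.51 and 2.59, and with shRNA_5bp 3.14, 2.69, 3.03 and 3.03. Both mutated hairpins lay below the empty vector without overlap, whereas shRNA (4.46 to 4.97) lay above it. On chromosome 15, with let-7c also encoded elsewhere, let-7b-5p and let-7c-5p stood at -0.02 and -0.01 with shRNA_2bp, and there were 26.5 ± 1.5 let-7b-5p counts per 100 let-7c-5p with the empty vector, 26.2 ± 1.2 with shRNA_2bp and 23.5 ± 0.51 with shRNA_5bp. The shRNA_5bp libraries lay below the empty vector without overlap (22.9 to 24.1 against 24.3 to 28). There let-7b-5p fell (-0.31), and let-7c-5p did not pass (-0.15).

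Let-7i-5p and let-7j, 1 base apart over the 22 they share, also separated. There were 1.58, 1.59, 1.65 and 1.54 let-7j counts per 100 let-7i-5p counts with the empty vector and 1.68, 1.62, 1.81 and 1.89 with shRNA. The ratio was 2.45, 2.65, 2.71 and 2.53 with shRNA_2bp and 2.42, 2.75, 2.43 and 2.8 with shRNA_5bp. Empty vector and shRNA overlapped, and both mutated hairpins lay above them and overlapped with each other. Whether reads of other origin were counted under let-7j was not tested.

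The opposite arms of the hairpins are usually degraded, and were scarce here. The file held 13 names in this list (12 3p arms and let-7k), of which 9 passed the filter. Let-7k is not a 3p arm, and its RefSeq sequence has the seed GAGGUAG of the guide strands. Let-7a-1-3p and let-7c-2-3p have the same counts in all 16 libraries, so they are 1 measurement under 2 names. With shRNA 0 of 9 changed, against 34.8% of all tested miRNAs. At an unadjusted p below 0.05 there were 3 of 9, against 205 of all 483 tested miRNAs. With shRNA_2bp 6 names rose and 0 fell, against 33.3% of all tested miRNAs higher and 32.3% lower, and the identical pair counts for 2 of the 6. The median was 0.37, and the names were let-7k (0.73 ± 0.2), let-7a-1-3p and let-7c-2-3p (each 0.37 ± 0.11), let-7b-3p (0.37 ± 0.14), let-7d-3p (0.15 ± 0.058, adjusted p = 0.0304) and 1 arm with a mean under 10 CPM. That count was 1 without shRNA_2bp library 3 and 3 without shRNA_5bp library 2. Without shRNA_2bp library 4 it was 1 rise and 1 fall, and without the filter on low counts again 1 and 1. With shRNA_5bp 4 of 9 names fell and 0 rose, against 26.7% of all tested miRNAs lower and 31.5% higher, and the identical pair again counts for 2. On the log2 scale let-7b-3p fell by 0.67, let-7d-3p by 0.44 and the identical let-7a-1-3p and let-7c-2-3p by 0.36.

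Let-7d-3p was the most abundant opposite arm, and it did not follow its guide strand with shRNA_2bp. Its RefSeq sequence, shown because its strand balance changed, is in the next line with bases 2 to 8 in capitals.
mmu-let-7d-3p: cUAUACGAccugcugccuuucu
It was at 796.8, 845.6, 825.1 and 787.5 CPM with the empty vector, at 916, 879.3, 906.9 and 900.9 with shRNA_2bp and at 603.3, 618.1, 602.9 and 572.7 with shRNA_5bp. The 5p strand of the same hairpin, in contrast, fell with both. There were 9.86, 10.9, 10.1 and 11.2 let-7d-3p counts per 100 let-7d-5p counts with the empty vector and 14.3, 15.1, 15.5 and 15.4 with shRNA_2bp. The shRNA_2bp libraries lay above all 12 others, since the ratio was 10.2 to 11.8 with shRNA and 11.3 to 12.4 with shRNA_5bp. By a narrow gap, the shRNA_5bp libraries also lay above the empty vector. Let-7d was not alone with shRNA_2bp, as let-7b-3p rose (0.37) while let-7b-5p stood at -0.02. Counts of let-7b-3p per 100 let-7b-5p, however, overlapped, at 0.253 to 0.32 with the empty vector and 0.316 to 0.421 with shRNA_2bp.

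**Figure D5:**
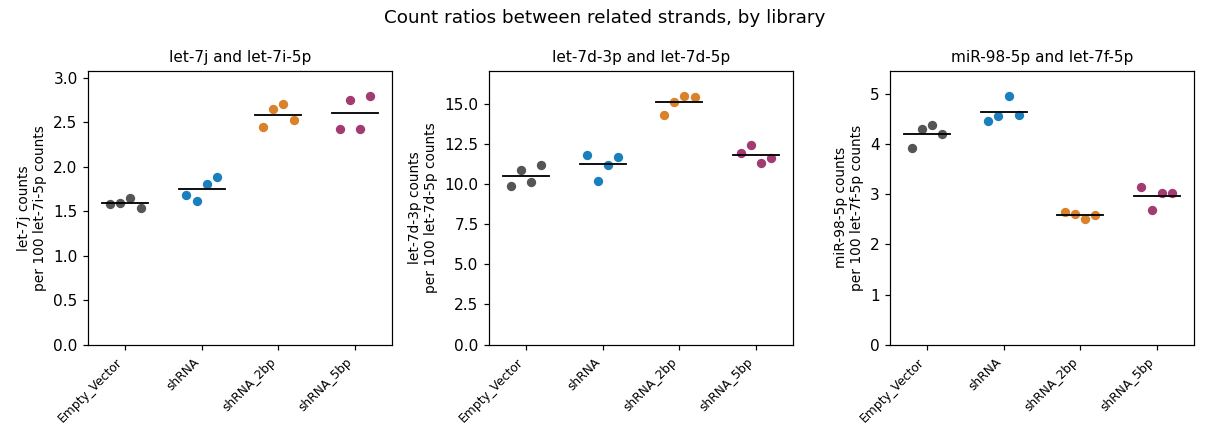
Counts of let-7j per 100 let-7i-5p, of let-7d-3p per 100 let-7d-5p and of miR-98-5p per 100 let-7f-5p in each library (points) with group means (bars), on axes from 0. The let-7j ratio is higher and the miR-98-5p ratio lower with both mutated hairpins, and the let-7d-3p ratio is highest with shRNA_2bp.

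Near 3 of the let-7 hairpins lie members of the miR-99/100 and miR-125 families. MiR-100-5p (0.20 with shRNA_2bp, 0.27 with shRNA_5bp), from the locus of Mirlet7a-2, and miR-99a-5p (0.75 and 0.15), 656 bases from Mirlet7c-1, rose with both mutated hairpins. MiR-125a-5p, 367 bases from Mirlet7e, rose by 0.26 with shRNA_2bp and fell by 0.42 on the log2 scale with shRNA_5bp. MiR-99b-5p fell with both (-0.14 and -0.58), as did let-7e-5p. With shRNA_2bp, however, libraries of both overlapped with the empty vector. There the call of let-7e-5p was lost in 12 of the 22 alternatives, and its sign turned in 1 more. Of the 5 partners 0 rose and 3 fell with shRNA, 4 rose and 1 fell with shRNA_2bp, and 2 rose and 2 fell with shRNA_5bp, against 34.8%, 65.6% and 58.2% of all tested miRNAs changed.

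Among 169 miRNAs outside the family with a mean of at least 100 CPM, the 3 whose centred log2 CPM over 16 libraries were nearest to the summed family were miR-26a-5p (root mean square difference 0.0847), miR-1198-5p (0.0948) and miR-151-3p (0.11). Let-7c-5p was the member nearest to the sum (0.063), and let-7j (0.373) and miR-98-5p (0.299) were the farthest. The nearest member to let-7d-5p was miR-98-5p (0.0991), which comes from another chromosome, and let-7b-5p and let-7c-5p, of the chromosome 15 cluster, were each other's nearest member (0.109).

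Levels of markers of other cells also differed between groups, in counts per 1 M of the library total. On that scale the median of all tested miRNAs also stood higher with each hairpin than with the empty vector, as given above. The part of that shift in the differences of the markers was not tested. The 3 miRNAs of the list used for astroglia were miR-21a-5p, miR-22-3p and miR-143-3p, none of them at 0 in any library. They summed to 1619 to 1790 counts per 1 M with the empty vector, 1964 to 2295 with shRNA, 3537 to 3845 with shRNA_2bp and 2132 to 2533 with shRNA_5bp. None of the 3 is particular to astroglia, miR-143-3p least of all, so this sum does not measure astroglia. The 6 vessel and fibroblast miRNAs, nearly all of them endothelial miR-126a-3p, summed to 626.1 to 734.4 with the empty vector, 632 to 767.1 with shRNA and 1156 to 1299 and 1219 to 1260 with the mutated hairpins. MiR-145a-5p of that list was at 0 in all 4 empty-vector libraries. The oligodendrocyte list, of which 1 of 3 (miR-338-3p) could be tested, stayed at 1.202 to 14.44 counts per 1 M in all libraries, and the microglia and leukocyte list at 45.06 to 57.01 with the empty vector, 75.29 to 105.4 with shRNA, 88.84 to 110.1 with shRNA_2bp and 70.91 to 90.27 with shRNA_5bp. The erythroid list, nearly all of it miR-486a-5p, was at 177.7 to 193.1 with the empty vector, 176.9 to 192.6 with shRNA and 220 to 251.6 with the mutated hairpins. Let-7 miRNAs are made by all these cell types, and the part of such cells, or of the lower depth, in the members' differences was not tested.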

How the data were processed

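Small RNA libraries were made from 100 ng of total RNA with 15 cycles of PCR, per the labels' protocols, which name no molecular identifiers. The submitters' processing notes name bcl2fastq 2.20.0.422, Trim Galore 0.6.0, cutadapt 1.15, Bowtie 1.1.1, edgeR and the build GRCm38.p6. The deposited table holds the authors' raw counts per miRNA name and library. How the authors assigned multi-matching reads is not given in the sources used here. From these counts, log2 fold changes and CPM were computed with edgeR 4.0.16 (R 4.3.3): filterByExpr, TMM scaling and robust quasi-likelihood fits to all 16 libraries, with 1 term per group and 12 residual degrees of freedom. The code was tested on simulated data.

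All 10 members are named. Of the opposite arms and cluster partners, up to 4 with the largest called changes and a mean of at least 10 CPM are named, and of the most alike miRNAs 3. Members and lists were chosen with earlier results of these data known. Same-numbered libraries, by the numbers in the sample titles, were taken as pairs where every correlation of their deviations over 360 miRNAs was above 0.1. That held for shRNA with the empty vector (lowest 0.111) and for shRNA_2bp with shRNA (lowest 0.166). The comparison of shRNA_2bp with the empty vector fell just short of that limit (0.0945 to 0.163).

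Alternatives were library-size and median-of-ratios scaling, no filter, DESeq2 1.42.0, a replicate block, fits to only the groups compared, and each library left out.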

Additional observations from a re-analysis of the deposited data

Results flagged for a closer look

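Of the 40 sets of 4 libraries formed by the 10 members in 4 groups, 3 held a library set apart from the other 3 by a gap of more than 0.829 of the set's range (Dixon's criterion). Chance alone flags about 1 in 20 such sets. Let-7d-5p was at 6408 CPM in shRNA_2bp library 1 and at 5811 to 5838 CPM in the other 3. Let-7e-5p was at 2119 CPM in shRNA_5bp library 4 and at 2405 to 2450 CPM in the others. Let-7i-5p was at 40350 CPM in empty-vector library 4 and at 43430 to 43770 CPM in the others.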

How the results depend on the processing

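Of the 36 member changes called over the 6 comparisons, 26 kept their direction and their call in all 22 alternatives. Of the 1320 alternative fold changes, 1031 kept direction and side of the threshold, 64 lost a call, 112 gained one and 113 turned direction. Except where stated, the cause was not tested. For shRNA against the empty vector the number of called members was 1, and it was 7 with library-size scaling, 2 with median-of-ratios scaling, 2 with DESeq2, 5 with the replicate block, 0 with only these groups fitted, and 0 to 3 without 1 library. With the replicate block 7 members were called for shRNA_2bp and 9 for shRNA_5bp against the empty vector, 7 for shRNA_2bp and 10 for shRNA_5bp against shRNA, and 9 for shRNA_5bp against shRNA_2bp, each within 1.5 times the count without the block. The share of all tested miRNAs called with the block is not given here, so these counts are not a result about the members. Where same-numbered libraries deviated together, the block changed no call other than those given with the results.

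Some directions turned. With library-size scaling these were, for shRNA, let-7a-5p (0.09) and let-7i-5p (0.02); for shRNA_2bp let-7b-5p (0.16), let-7c-5p (0.17), let-7e-5p (0.01) and let-7i-5p (0.08); and for shRNA_5bp let-7c-5p (0.09) and let-7f-5p (0.13). Median-of-ratios scaling and DESeq2 gave, for shRNA, 0.00 for let-7d-5p, -0.02 for let-7f-5p, and -0.02 and -0.01 for let-7j; for shRNA_2bp 0.01 for let-7c-5p, as did the fit to only these groups; and for shRNA_5bp -0.04 for let-7i-5p. Fitting only the groups compared gave let-7i-5p -0.07 for shRNA_5bp against the empty vector, and let-7i-5p and let-7j -0.04 each for shRNA_5bp against shRNA_2bp. Without the filter, shRNA gave -0.01 for let-7f-5p and let-7j, shRNA_2bp gave -0.04 for let-7a-5p, and shRNA_5bp gave 0.00 for let-7g-5p and -0.22 for let-7i-5p. Against shRNA, shRNA_2bp gave -0.06 for let-7e-5p and let-7i-5p, and shRNA_5bp -0.09 for let-7g-5p and -0.07 for let-7i-5p. ShRNA_5bp against shRNA_2bp gave -0.02 for let-7i-5p and -0.01 for let-7j.

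Without 1 library, the ranges that crossed 0 were, for shRNA, -0.15 to 0.06 for let-7a-5p, -0.03 to 0.14 for let-7c-5p, -0.05 to 0.12 for let-7d-5p, -0.06 to 0.12 for let-7f-5p and -0.06 to 0.11 for let-7j. For shRNA_2bp they were -0.07 to 0.14 for let-7a-5p, -0.11 to 0.04 for let-7b-5p and -0.10 to 0.06 for let-7c-5p, and for shRNA_5bp -0.07 to 0.02 for let-7i-5p. Against shRNA they were, for shRNA_2bp, -0.04 to 0.05 for let-7e-5p and -0.02 to 0.04 for let-7i-5p, and for shRNA_5bp -0.05 to 0.15 for let-7g-5p and -0.02 to 0.14 for let-7i-5p. For shRNA_5bp against shRNA_2bp they were -0.02 to 0.14 for let-7i-5p and -0.01 to 0.17 for let-7j.

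Over all tested miRNAs the calls were split 95 higher and 73 lower for shRNA, 161 and 156 for shRNA_2bp and 152 and 129 for shRNA_5bp. With library-size scaling the splits were 149 and 44, 206 and 127, and 216 and 81. The lowest count of a member, 905, bounds counting error only, and depth differed with the group.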
